A study of Mus musculus with 6 samples.

Results

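The 59 genes described here are the chemokines and chemokine receptors of the mouse, taken as every gene whose symbol begins with Ccl, Cxcl, Xcl or Cx3cl for the ligands, or Ccr, Cxcr, Xcr or Cx3cr for the receptors, followed by a digit. They are 59 of the 48440 genes listed for small intestinal adenomas, and comprise 38 ligand genes, 19 receptor genes and 2 pseudogenes of *Ccl19*, with *Cxcl11*, annotated as a polymorphic pseudogene, counted as a ligand. Chemokines are small secreted proteins that bind G protein-coupled receptors on leukocytes and steer their migration along gradients. Inducible chemokines are made when epithelial cells, stromal cells and macrophages sense microbes or inflammatory cytokines, and homeostatic chemokines guide lymphocytes to tissues at rest. In the small intestine, epithelial *Ccl25* draws lymphocytes that carry *Ccr9*, and ligands of *Cxcr2* draw neutrophils into inflamed mucosa and tumors.

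RNA was sequenced from small intestinal adenoma polyps of 6 mice on a C57BL/6 background, with 1 library per mouse. All mice carried the *Apc* Min allele, a truncating mutation of the tumor suppressor *Apc* that leads to intestinal adenomas, and 1 copy of an inducible diphtheria toxin A allele at the Rosa26 locus (*Rosa26* iDTA/WT). In the 3 *Apc* Min, PC del mice (libraries QC3, QC8 and QC10), Cre from a *Defa4-Cre* knock-in, made by placing IRES-Cre at *Defa4* in 129/svJ stem cells, switched on the toxin in cells of the Paneth cell (PC) lineage. The 3 *Apc* Min, WT mice (QC4, QC5 and QC6) were littermates without Cre, so that WT refers to their PCs and not to *Apc*. The labels give an age above 42 days for each mouse, and the study used both sexes, but the sex of each mouse and the number of polyps behind a library are not given in the sources used here. Genotypes were housed together and fed an AIN-76A diet.

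Levels are in FPKM, fragments scaled to transcript length and library size, which allows genes of different length to be compared. Differences between genotypes are log2 fold changes of FPKM + 1, positive where PC del was higher, a scale that understates the change of weakly expressed genes. limma was fitted to the 14240 genes that averaged 1 FPKM or more, and a gene was called at a Benjamini-Hochberg adjusted p under 0.05. For single genes an exact permutation test (two-sided) is given as well, whose smallest possible p with 3 mice against 3 is 0.1. Of the 59 genes, 55 were above 0 in at least 1 library and 39 passed the filter, 31 ligands and 8 receptors. Of these 39, *Cxcl2*, *Cxcl3*, *Ccl4*, *Ccr7* and *Ccl12* passed only through PC del, with a mean FPKM under 1 in WT, so that their place among the tested genes depends on the genotype where they were higher. The members nearest to the filter were *Ccl12* (mean 1.005 FPKM), *Ccr7* (1.09) and *Ccl4* (1.13) inside it and *Ccr2* (0.870), *Cxcr3* (0.773) and *Ccl3* (0.714) outside it.

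Of 7 Paneth cell genes, 4 were lower in PC del at an unadjusted p under 0.05 (all tested genes, 0.681%). Of these 4, 3 had groups that do not overlap, *Lyz1*, *Defa21* and *Defa22* (all tested genes, 1.54% lower without overlap). The groups of *Itln1*, also among the 4, overlapped (-0.62 log2, SE 0.25), as did those of *Mmp7*, *Pla2g2a* and *Ang4*. The 7 genes summed to 3465, 4801 and 5205 FPKM in WT and 2442, 3549 and 2208 FPKM in PC del, so that the sums overlapped (QC8 above QC4). *Defa21* and *Defa22* had log2 fold changes of -2.99 (SE 0.38) and -2.77 (SE 0.35), each with a limma adjusted p of 0.309. *Lyz1*, which encodes lysozyme, stood at 1672, 2229 and 2281 FPKM in QC4, QC5 and QC6 and at 950.3, 1148 and 1082 FPKM in QC3, QC8 and QC10. The PC del libraries lay below all 3 WT libraries (log2 fold change -0.95, SE 0.18, limma adjusted p = 0.979, exact permutation p = 0.1). Genes of epithelium and of Wnt signalling in adenomas were abundant, with *Epcam* at a mean of 879.9 FPKM and *Notum* at 59.2 FPKM. One WT library stood apart: the 8 genes of absorptive enterocytes summed to 25050 FPKM in QC6 and to between 9204 and 14840 FPKM in the other libraries, and the 8 epithelial genes were lowest there (4370 FPKM, against 5032 to 6271). limma's array quality weight was 0.237 for QC6 and between 0.634 and 3.09 for the others. Y-linked genes were found mainly in QC6 and QC3, with *Ddx3y* at 7.43 and 8.22 FPKM there and under 0.2 FPKM elsewhere, so that each genotype held 1 such library.

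Chemokine RNA in these adenomas was dominated by a few ligands. Over the 59 genes, FPKM summed to 337.6 in QC4, 356.6 in QC5 and 449.9 in QC6, and in PC del to 432.0 in QC3, 404.2 in QC8 and 453.4 in QC10, between 0.0591% and 0.0794% of all FPKM. The sums of the genotypes overlapped, since QC6 was above QC3 and QC8. The 3 most abundant genes, *Ccl25*, *Ccl6* and *Ccl5*, took between 42.4% and 63.8% of the sum in each library. *Ccl25* ranked first and *Ccl6* second in all 6 libraries, whereas *Ccl5* took places 3 to 8. A further 5 ligands averaged above 10 FPKM, *Cx3cl1* (25.2 FPKM), *Ccl11* (24.9), *Cxcl16* (22.1), *Cxcl14* (17.4) and *Ccl9* (13.1), and neighbors in this order overlapped over the libraries. Receptors were lower: *Cxcr4* led them at 6.58 FPKM and ranked 9, and the 19 receptors together made 21.2 ± 0.817 FPKM in WT and 25.7 ± 3.33 FPKM in PC del (SD, n = 3).

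**Figure D1:**
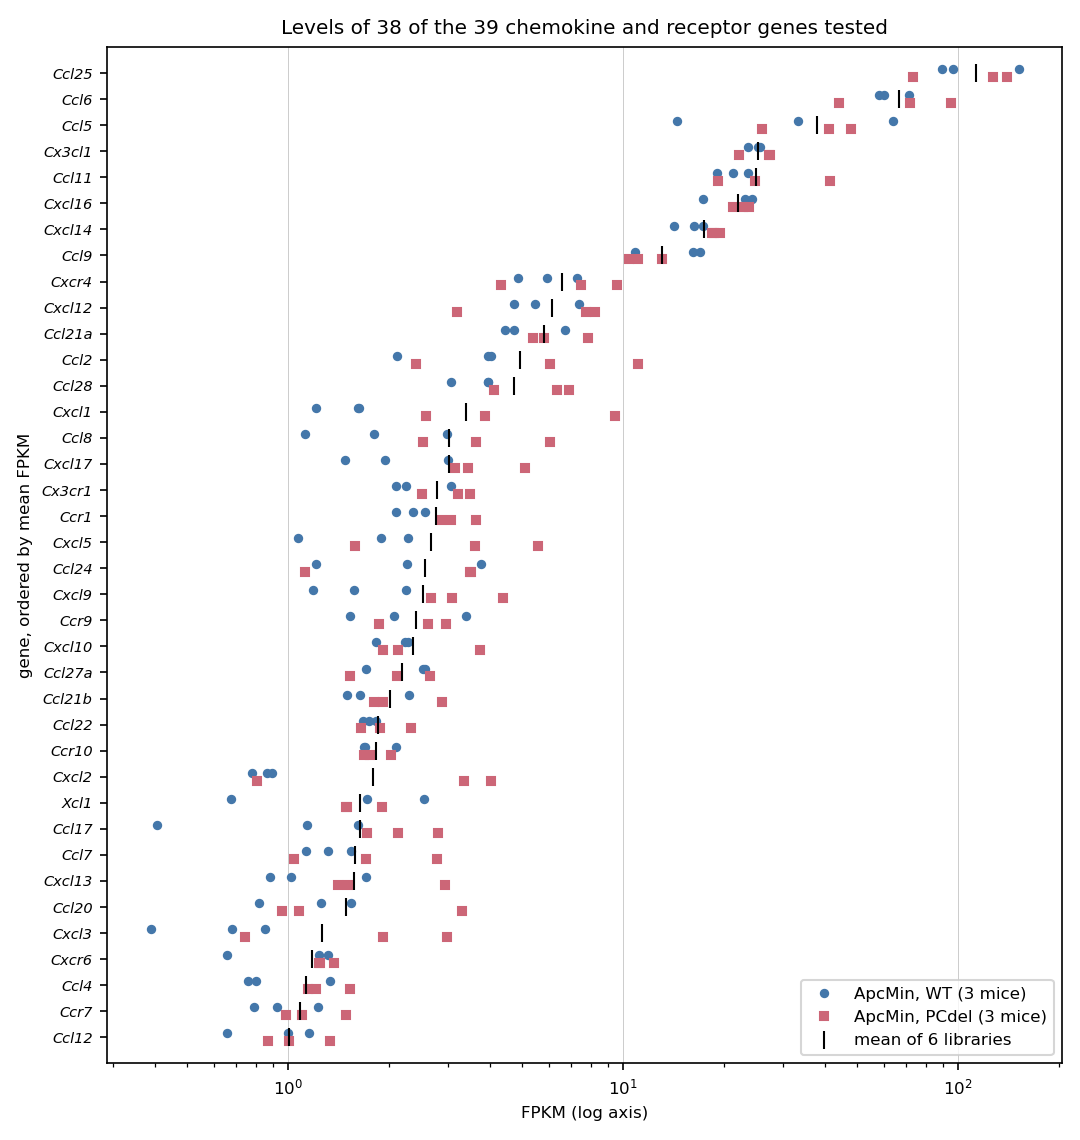
FPKM of 38 of the 39 tested chemokine and receptor genes on a log axis, ordered by their mean, with 1 point per library for *Apc* Min, WT (circles) and *Apc* Min, PC del (squares) and a tick at the mean of 6 libraries. *Ccl25* leads at a mean of 113.1 FPKM, and most genes lie under 10 FPKM.

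No member passed the adjusted threshold: limma gave an adjusted p of 1 for each of the 39, against 2 genes called among the 14240 (0.014%). At an unadjusted p under 0.05, 9 of the 39 members were higher in PC del (all tested genes, 2.7%) and 0 were lower (0.681%). They included *Cxcl1*, *Cxcl3*, *Cxcl9*, *Ccl17*, *Ccl28*, *Cxcl17*, *Ccl8* and *Ccr1*, and of these *Cxcl3* had passed the filter only through PC del. Every PC del library was above every WT library for 8 members (all tested genes, 6.0%), and the reverse held for 0 (1.54%). The log2 fold change was above 0 for 36 of the 39 members, where 63.1% of all tested genes were above 0, and its median was 0.23 for the members and 0.04 for all tested genes. All 5 members that passed the filter only through PC del are among the 36. The filter favoured their sign, so that this count and the members' median are descriptions. Differences shared by most genes bear on these counts, since among all tested genes 79.8% of the calls at an unadjusted p under 0.05 were higher in PC del. That share was 61.4% after median centring of the libraries and 58.9% with quantile normalization, and the members past this threshold then numbered 4 (all tested genes, 1.95%) and 6 (1.83%), with 0 lower under either. Leaving out QC3, QC4 or QC8 brought the 9 members down to 3, 4 and 5, and leaving out QC10 raised the members whose groups do not overlap from 8 to 18 (all tested genes, 15.7%). The shares of all tested genes without QC3, QC4 and QC8 were 2.58%, 2.96% and 1.76%. Without QC6 there were 6 higher (all tested genes, 3.42%) and 1 lower, *Ccl9*, of 39 (all tested genes, 2.34%).

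**Figure D2:**
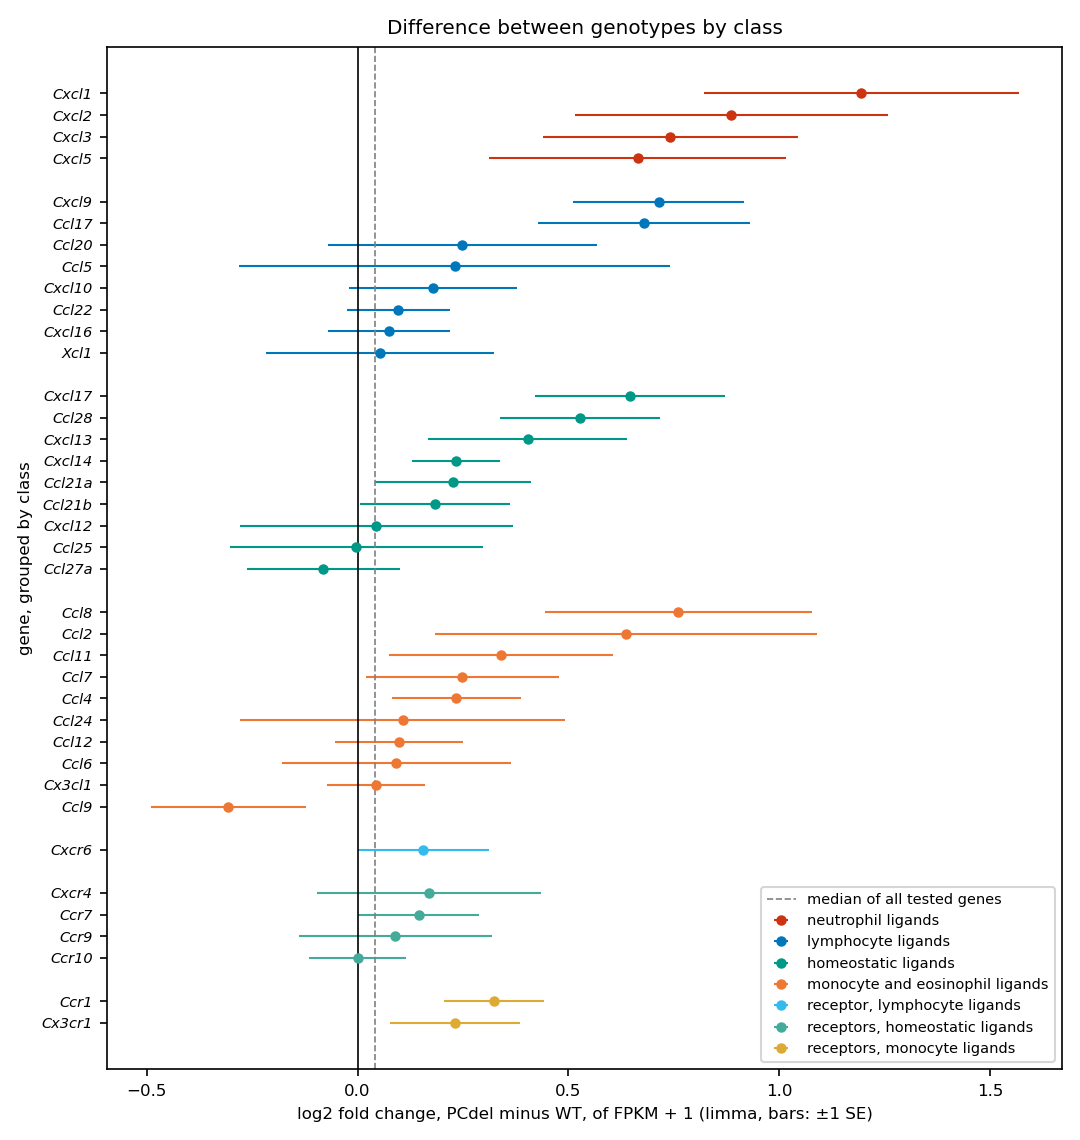
Log2 fold change of FPKM + 1 (PC del minus WT) of 38 of the 39 tested members, grouped by class, with bars of 1 SE from limma, a solid line at 0 and a dashed line at 0.04, the median of all tested genes. The 4 tested neutrophil ligands lie between 0.67 and 1.20, and of these *Cxcl2* and *Cxcl3* entered the test only through PC del. The bars of most genes of other classes reach the dashed line or lie close to it.

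Of the 5 ligands that attract neutrophils, 4 were tested and 2, *Cxcl1* and *Cxcl3*, had an unadjusted p under 0.05 (all tested genes, 2.7%). None passed the adjusted threshold. Ligands of this class signal through *Cxcr2* and, in epithelium and stroma, are typical products of microbial and cytokine stimulation. *Cxcl1* stood at 1.61, 1.63 and 1.21 FPKM in QC4, QC5 and QC6 and at 3.87, 9.46 and 2.58 FPKM in QC3, QC8 and QC10. All PC del libraries were above all WT libraries, with QC8 far above the rest (1.20 log2, SE 0.37, 95% interval 0.30 to 2.08; limma unadjusted p = 0.0159, exact permutation p = 0.1), and without QC8 the log2 fold change was 0.75. *Cxcl2* stood at 0.779, 0.895 and 0.865 FPKM in WT, in the same order of libraries, and at 3.36, 4.05 and 0.807 FPKM in PC del. QC3 and QC8 were thus far above WT and QC10 lay among the WT libraries (0.89 log2, SE 0.37; limma unadjusted p = 0.0502, exact permutation p = 0.3). *Cxcl3*, a close relative, gave 0.855, 0.682 and 0.388 FPKM in WT and 1.93, 2.98 and 0.742 FPKM in PC del. The pattern over the libraries was that of *Cxcl2*, with QC10 again inside the WT range (0.74 log2, SE 0.30; limma unadjusted p = 0.0454, exact permutation p = 0.2). The 2 genes share some sequence: 7.6% of the 31-base stretches of *Cxcl2* also occur in *Cxcl3*, and 4.6% of those of *Cxcl3* in *Cxcl2*. *Cxcl2* and *Cxcl3* had passed the filter only through PC del, so that their p-values depend on the genotype where they were higher. *Cxcl5*, made mainly by epithelial cells in other mucosae, gave 2.28, 1.89 and 1.07 FPKM in WT and 5.56, 3.62 and 1.58 FPKM in PC del. Here QC3 was the highest, and QC10 was below QC4 and QC5 (0.67 log2, SE 0.35; limma unadjusted p = 0.103, exact permutation p = 0.3), and the log2 fold change was 0.36 without QC3 and 1.03 without QC10.

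Summed over the class of 5, which also holds the lung chemokine *Cxcl15* at no more than 0.110 FPKM, the neutrophil ligands came to 5.57, 5.13 and 3.65 FPKM in WT and 14.8, 20.2 and 5.72 FPKM in PC del. The sum in QC10 was only just above that of QC4. No median is given for the class, since *Cxcl2* and *Cxcl3* had entered the test only through PC del. Without QC8 the log2 fold change of *Cxcl3* was 0.47. In the fit without QC10, the log2 fold change of *Cxcl2* was 1.35 with a limma adjusted p of 0.235, and the adjusted p over the alternatives for this gene ranged from 0.235 to 1. The receptors of these ligands, which neutrophils carry, were near the bottom of the ranking: *Cxcr2* stood at 0.490, 0.336 and 0.128 FPKM in WT and 0.511, 0.336 and 0.154 FPKM in PC del, and *Cxcr1* at no more than 0.0209 FPKM in any library. Both were under the filter, and the genotypes overlapped.

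Neutrophil marker genes are given beside these ligands. Of 12 such genes, 7 were tested, all with a log2 fold change above 0 (all tested genes, 63.1%), and 1 had an unadjusted p under 0.05 (2.7%). The list summed to 58.5, 40.2 and 25.6 FPKM in WT and to 72.4, 70.9 and 42.5 FPKM in PC del, of which *Ltf*, lactoferrin, made 60.5%. *Retnlg* was above WT in all PC del libraries, at 5.13, 4.13 and 4.39 FPKM in WT and 7.18, 9.40 and 7.18 FPKM in PC del. *S100a8*, which neutrophils express strongly, was highest in a WT library, at 5.87, 1.05 and 0.982 FPKM in WT and 2.95, 4.75 and 0.760 FPKM in PC del. *Ngp* and *Camp* of immature neutrophils were listed at 0 in every library. By their sums, QC10 was the lowest PC del library for both the ligands and this list. It was also the lowest for *S100a8*, but not for *Retnlg* or *Ly6g*. *Ly6g* stood at 1.58, 7.50 and 3.89 FPKM in QC3, QC8 and QC10. The part of neutrophils in the ligands' levels was not tested. In bulk RNA, more cells of a type and more RNA per cell cannot be told apart.

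**Figure D3:**
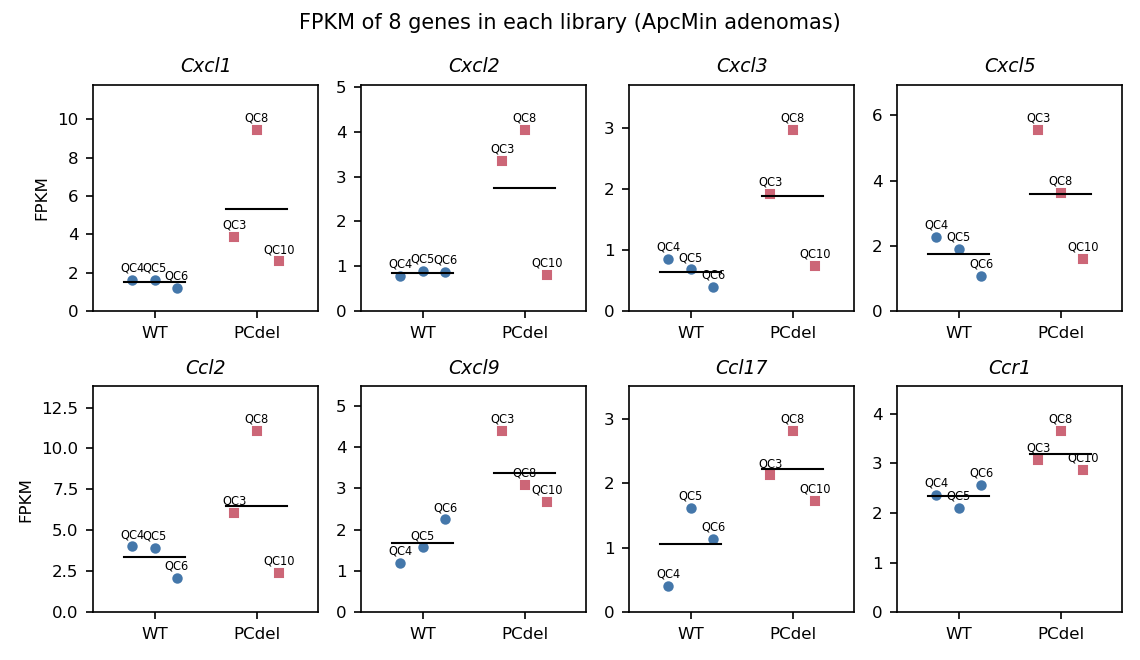
FPKM of 8 chemokine and receptor genes in each library, by genotype, with a line at the mean of 3 mice and each axis starting at 0. For *Cxcl2* and *Cxcl3*, QC10 (0.807 and 0.742 FPKM) lies with the WT libraries, and for *Cxcl9*, *Ccl17* and *Ccr1* all PC del libraries lie above WT.

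The genes *Cxcl5*, *Cxcl3*, *Cxcl15*, *Cxcl1* and *Cxcl2* lie close together on chromosome 5, between 90759360 and 90905938, within 147 kb (GRCm38). The sequence just upstream of *Cxcl1*, *Cxcl2* and *Cxcl3*, which were chosen after their levels in PC del were seen, is shown, as given by RefSeq for GRCm38.p6 on the plus strand. Capitals mark GGAATTTCC, the core of a site for NF-κB, the transcription factor that inflammatory cytokines activate. The windows are chr5:90891121-90891240 for *Cxcl1*, chr5:90903751-90903870 for *Cxcl2* and chr5:90785981-90786100 for *Cxcl3*, each of 120 bases, ending at the base before the listed gene start of *Cxcl1* and *Cxcl2* and 2 bases short of that point for *Cxcl3*.
Cxcl1: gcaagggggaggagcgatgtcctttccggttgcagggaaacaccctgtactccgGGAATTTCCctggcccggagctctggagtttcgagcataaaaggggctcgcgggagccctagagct
Cxcl2: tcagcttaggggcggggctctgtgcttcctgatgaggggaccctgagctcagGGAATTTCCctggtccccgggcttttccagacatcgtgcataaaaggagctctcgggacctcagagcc
Cxcl3: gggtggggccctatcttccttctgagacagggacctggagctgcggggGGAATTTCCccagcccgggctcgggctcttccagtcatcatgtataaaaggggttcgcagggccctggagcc

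The motif begins 66, 68 and 74 bases before the listed start of *Cxcl1*, *Cxcl2* and *Cxcl3*. These 9 letters were chosen after the 3 sequences had been read, so that their presence in all 3 is a description. Searched on both strands of the 250 bases before the start, they occurred in 94 of 32851 promoter entries (0.286%), where a gene can have several entries. Of the 59 members, 42 had a promoter entry, and 5 of the 42 (5 of their 49 entries) held the letters: *Cxcl1*, *Cxcl2*, *Cxcl3*, *Cxcl10* and *Ccr3*. *Cxcl5* had no entry and was not searched. A match of letters says nothing of whether a factor was bound in these adenomas.

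Among the inducible ligands that attract lymphocytes, the groups of *Cxcl9* and *Ccl17* did not overlap and those of the most abundant, *Ccl5* and *Cxcl16*, did. *Cxcl9*, an interferon-induced ligand of *Cxcr3* on activated T cells, stood at 1.19, 1.57 and 2.25 FPKM in QC4, QC5 and QC6 and at 4.38, 3.09 and 2.67 FPKM in QC3, QC8 and QC10. The groups did not overlap (0.71 log2, SE 0.20, 95% interval 0.23 to 1.20; limma unadjusted p = 0.0106, exact permutation p = 0.1). *Cxcl10*, which shares its receptor and lies beside it on chromosome 5, stood at 2.28, 2.23 and 1.82 FPKM in WT and 3.75, 2.12 and 1.93 FPKM in PC del, where only QC3 was above the WT range (0.18 log2, SE 0.20). *Cxcl11*, the third gene of that cluster, was at no more than 0.291 FPKM, and 41.7% of its exonic bases lie opposite another gene. *Ccl17*, a ligand of *Ccr4* made by dendritic cells and macrophages, gave 0.406, 1.62 and 1.14 FPKM in WT and 2.12, 2.81 and 1.72 FPKM in PC del. Its groups did not overlap, with QC4 far below the other libraries and QC10 just above QC5 (0.68 log2, SE 0.25; limma unadjusted p = 0.0315, exact permutation p = 0.1), and without QC4 the log2 fold change was 0.43 with a limma unadjusted p of 0.0683. *Ccl22*, the other ligand of *Ccr4* and a neighbor of *Ccl17* on chromosome 8, ranged from 1.65 to 2.33 FPKM with overlapping groups.

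*Ccl5*, made by T cells and NK cells among others, varied more than any other abundant member. It stood at 14.5, 33.3 and 64.1 FPKM in QC4, QC5 and QC6 and at 41.3, 26.1 and 47.8 FPKM in QC3, QC8 and QC10. The lowest and the highest library were both WT (0.23 log2, SE 0.51, 95% interval -0.99 to 1.45; limma unadjusted p = 0.666, exact permutation p = 0.8), and without QC4 the log2 fold change was -0.31 and without QC6 it was 0.73. The 10 T cell genes followed the same order within WT, with sums of 17.5, 24.4 and 39.8 FPKM, and came to 30.9, 25.9 and 34.0 FPKM in PC del. Of the 8 that were tested, among them *Cd2*, which passed the filter only through PC del, 0 had an unadjusted p under 0.05; *Cd3g* was the most abundant, none was listed at 0 throughout, and their part in the level of *Ccl5* was not tested. *Cxcl16*, a membrane-bound ligand for *Cxcr6* on intestinal lymphocytes, stood at 23.2, 24.3 and 17.3 FPKM in WT and 23.7, 22.8 and 21.3 FPKM in PC del, so that only QC6 was apart (0.07 log2, SE 0.15, 95% interval -0.27 to 0.42). *Zmynd15* overlaps 18.3% of its exonic bases on the other strand, at no more than 1.30 FPKM. *Ccl20*, which draws *Ccr6*-bearing lymphocytes, was highest in QC3 at 3.31 FPKM and lay between 0.817 and 1.54 FPKM in the other libraries. *Xcl1* ranged from 0.675 to 2.55 FPKM with both ends in WT, and *Ccl1* was at no more than 0.757 FPKM. The 8 tested ligands of this class had a median log2 fold change of 0.21, against 0.04 for all tested genes. The class median was 0.08 without QC3, 0.12 without QC4, 0.33 without QC6 and 0.36 without QC8. Of these 8 ligands, 2 had an unadjusted p under 0.05 (all tested genes, 2.7%). Their receptors were scarce: *Cxcr6* averaged 1.18 FPKM and was the 1 receptor of 6 that was tested, *Cxcr3* averaged 0.773 FPKM, and *Xcr1*, *Ccr8*, *Ccr6* and *Ccr4* between 0.167 and 0.283 FPKM.

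Of the homeostatic ligands, the most abundant did not separate the genotypes, whereas 3 of the 9 tested, *Cxcl14*, *Ccl28* and *Cxcl17*, had groups that do not overlap (all tested genes, 6.0%). *Ccl25*, which the small intestinal epithelium makes and which draws *Ccr9*-bearing lymphocytes, stood at 96.8, 89.7 and 151.6 FPKM in QC4, QC5 and QC6 and at 139.9, 73.6 and 127.0 FPKM in QC3, QC8 and QC10. Lowest and highest library came from different genotypes and the means were alike, 112.7 ± 33.9 and 113.5 ± 35.2 FPKM (SD, n = 3; 95% interval of the log2 fold change -0.72 to 0.71; limma unadjusted p = 0.992, exact permutation p = 1). QC6, with the highest *Ccl25*, was also the library with the highest enterocyte genes. The enterocyte list of 8 had 7 genes with a log2 fold change below 0 and 0 with an unadjusted p under 0.05, and summed to 10400, 9905 and 25050 FPKM in WT and 11000, 9204 and 14840 FPKM in PC del, with *Apoa1* the most abundant and none at 0. The part of enterocytes in the level of *Ccl25* was not tested. *Ccr9* gave 2.08, 1.53 and 3.39 FPKM in WT and 2.62, 1.86 and 2.96 FPKM in PC del, again highest in QC6 and without separation of the genotypes. Other genes overlap 19.0% of the exonic bases of *Ccr9* on the other strand and 2.6% on its own strand.

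*Cxcl14*, an epithelial and stromal chemokine, stood at 17.3, 14.2 and 16.3 FPKM in WT and at 19.4, 18.4 and 18.7 FPKM in PC del. The groups did not overlap and the difference was small (0.23 log2, SE 0.10; limma unadjusted p = 0.0625, exact permutation p = 0.1). *Ccl28*, a mucosal ligand of *Ccr10* on IgA plasma cells, gave 3.07, 3.96 and 3.94 FPKM in WT and 6.36, 4.12 and 6.92 FPKM in PC del. QC8 was close to WT, and QC3 and QC10 were well above it (0.53 log2, SE 0.19; limma unadjusted p = 0.0279, exact permutation p = 0.1). *Ccr10* itself ranged from 1.69 to 2.10 FPKM with no separation, and the 6 plasma cell genes, led by *Igha*, summed to 9860, 9088 and 13810 FPKM in WT and 11880, 10470 and 10440 FPKM in PC del, with 0 of 6 at an unadjusted p under 0.05. *Cxcl17*, a mucosal chemokine, gave 3.01, 1.95 and 1.48 FPKM in WT and 5.09, 3.15 and 3.45 FPKM in PC del. The groups did not overlap, although QC4 came close to QC8 (0.65 log2, SE 0.22; limma unadjusted p = 0.0249, exact permutation p = 0.1).

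The other homeostatic ligands belong to lymphoid and stromal tissue. *Cxcl12*, the ligand of *Cxcr4*, stood at 4.72, 5.45 and 7.41 FPKM in WT and at 3.19, 7.75 and 8.27 FPKM in PC del, so that PC del held both extremes (0.04 log2, SE 0.32). *Cxcr4* gave 7.27, 5.94 and 4.85 FPKM in WT and 9.58, 7.51 and 4.32 FPKM in PC del, and here too PC del held both the highest and the lowest library (0.17 log2, SE 0.27). *Ccl21a*, which with *Ccl19* draws *Ccr7*-bearing cells to lymphatics and lymphoid tissue, gave 4.44, 6.71 and 4.74 FPKM in WT and 5.82, 5.39 and 7.86 FPKM in PC del with overlapping groups (0.23 log2, SE 0.18). This gene had a log2 fold change of 0.13 without QC4, 0.38 without QC5, 0.085 without QC10 and 0.026 with array quality weights. Its level is uncertain, since 80.6% of its 31-base words also occur in *Gm21541*, which was listed at 1.23 to 2.15 FPKM. *Ccl21b* shares 100% of such words with *Gm13304*, and *Ccl27b*, listed at 0 in every library, shares 98.2% with *Gm13306*, which was listed at 1.08 to 1.47 FPKM. *Ccl19* was likewise listed at 0 in every library and shares 58.8% with *Gm2564*. How fragments were divided between such copies is not given in the sources used here. *Cxcl13*, which draws B cells through *Cxcr5*, ranged from 0.886 to 1.70 FPKM in WT and from 1.41 to 2.94 FPKM in PC del, and *Cxcr5* was at no more than 0.224 FPKM. The 9 tested homeostatic ligands had a median log2 fold change of 0.23 (0.14 without QC4 and 0.085 without QC10), against 0.04 for all tested genes. Of these 9 ligands, 2 had an unadjusted p under 0.05 (all tested genes, 2.7%). Of the 4 tested receptors of homeostatic ligands, *Cxcr4*, *Ccr9*, *Ccr10* and *Ccr7*, 0 had one.

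The ligands that attract monocytes, macrophages and eosinophils held several of the most abundant members, whose genotypes overlapped. *Ccl6*, a macrophage chemokine of rodents, stood at 58.3, 60.2 and 71.3 FPKM in QC4, QC5 and QC6 and at 44.1, 71.8 and 95.5 FPKM in QC3, QC8 and QC10. PC del held both extremes (0.09 log2, SE 0.27). *Ccl9*, its neighbor on chromosome 11, stood at 16.2, 17.0 and 10.8 FPKM in WT and 11.1, 10.4 and 13.1 FPKM in PC del. It was the lowest fold change of the 39 members, at -0.31 log2 (SE 0.18; limma unadjusted p = 0.141, exact permutation p = 0.3), and QC6 lay among the PC del libraries. Without QC6 it was -0.50 (limma unadjusted p = 0.00722, adjusted p = 0.779, where the adjusted p over its alternatives ranged from 0.354 to 1). Without QC5 it was -0.19, with a limma unadjusted p of 0.368. *Cx3cl1*, a membrane-bound ligand for *Cx3cr1* on intestinal macrophages, was the steadiest of the abundant ligands, at 25.2, 25.6 and 23.6 FPKM in WT and 22.2, 27.3 and 27.5 FPKM in PC del (0.04 log2, SE 0.12). *Ccl11*, the eosinophil chemokine eotaxin, gave 21.2, 19.0 and 23.6 FPKM in WT and 24.8, 41.5 and 19.3 FPKM in PC del, with QC8 far above the others and QC10 inside the WT range (0.34 log2, SE 0.27). Its log2 fold change was 0.04 without QC8 and 0.58 without QC10.

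*Ccl2*, the main attractant of *Ccr2*-bearing monocytes, stood at 4.03, 3.96 and 2.11 FPKM in WT and 6.06, 11.05 and 2.42 FPKM in PC del (0.64 log2, SE 0.45; limma unadjusted p = 0.205, exact permutation p = 0.4). QC8 was the highest and QC10 lay within the WT range. *Ccl7*, the next gene on chromosome 11, was also highest in QC8, at 2.78 FPKM, and lowest in QC10, at 1.04 FPKM. *Ccl8*, made by intestinal macrophages, gave 1.12, 2.98 and 1.80 FPKM in WT and 3.65, 6.05 and 2.53 FPKM in PC del. QC5 was above QC10, so that the groups overlapped (0.76 log2, SE 0.32; limma unadjusted p = 0.0487, exact permutation p = 0.2), and without QC8 the log2 fold change was 0.495 with a limma unadjusted p of 0.143. Where a gene has 1 annotated transcript, coverage gives the fragments behind it, since the most common amount of aligned sequence among weakly covered genes was 170 bases in each library, taken here as 1 fragment. *Ccl8* then rested on 19.3 to 102 fragments per library, *Ccl7* on 28.8 to 73.5 and *Ccl3*, under the filter, on 7.28 to 31.2. *Ccl24*, *Ccl4* and *Ccl12* averaged between 1.005 and 2.56 FPKM with overlapping groups, and *Ccl26* was listed at 0. Of the 10 tested ligands of this class, 1 had an unadjusted p under 0.05 (all tested genes, 2.7%). Groups that do not overlap were found for 0 of the 10 (all tested genes, 6.0%). *Ccl4* and *Ccl12* had entered the test only through PC del.

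Among the receptors of these ligands, *Ccr1* was higher in all PC del libraries. *Ccr1*, a receptor of monocytes and neutrophils, gave 2.36, 2.11 and 2.57 FPKM in WT and 3.07, 3.64 and 2.87 FPKM in PC del, without overlap (0.32 log2, SE 0.12; limma unadjusted p = 0.0309, exact permutation p = 0.1). *Cx3cr1* overlapped between genotypes, at 2.10 to 3.08 FPKM in WT and 2.52 to 3.49 FPKM in PC del. *Ccr2* and *Ccr3* were under the filter.

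Of 10 macrophage and monocyte markers, all were tested and above 0 on the log2 scale, 4 had an unadjusted p under 0.05 (all tested genes, 2.7%), 0 passed the adjusted threshold of limma and 5 had groups that do not overlap (6.0%), with a median of 0.35 (0.04). Of all tested genes 63.1% were above 0. The list summed to 122.8, 122.0 and 137.9 FPKM in WT and to 155.8, 174.9 and 152.6 FPKM in PC del, each PC del library above each WT library, with *C1qa* the most abundant and none at 0. *Fcgr1* was at 1.13, 1.26 and 1.23 FPKM in WT and 2.41, 1.90 and 1.93 FPKM in PC del. The part of macrophages in the levels of *Ccr1* and *Ccl8* was not tested. Of 7 fibroblast genes, all were tested and above 0 (all tested genes, 63.1%), 2 had an unadjusted p under 0.05 (2.7%), and the list, led by *Dcn* with none at 0, summed to 253.1, 282.2 and 191.1 FPKM in WT and 381.6, 361.3 and 240.6 FPKM in PC del, with QC10 again the lowest PC del library. Its part in the levels of stromal chemokines was not tested.

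Of 8 genes of endothelium and lymphatics, 1 had an unadjusted p under 0.05 (all tested genes, 2.7%), *Pdpn* (0.51 log2, SE 0.20). Of the 1 tested dendritic cell gene, 2 B cell genes, 6 eosinophil and mast cell genes, 8 epithelial genes and 9 Wnt target genes, 0 had one. Dendritic cell genes summed to between 4.83 and 7.36 FPKM and B cell genes to between 15.5 and 22.5 FPKM, mostly *Cd79a*, which plasma cells also express, while *Ms4a1* was at no more than 0.141 FPKM and *Fcer2a* was listed at 0. Of the eosinophil genes, *Epx* was listed at 0 throughout. *Siglecf* lay between 0.706 and 5.86 FPKM, highest in QC8 like *Ccl11*, and *Il5ra*, under the filter, was also highest there, at 0.202 FPKM. *Prg2* lay between 1.95 and 5.07 FPKM, was highest in QC3 and stood at only 2.11 FPKM in QC8. The part of eosinophils in the level of *Ccl11* was not tested. The mast cell genes *Mcpt1* and *Mcpt2* made most of their list's sum, which lay between 250.5 and 961.7 FPKM.

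Genes that act around chemokines were compared in 5 lists. Of the 14 cytokines known to induce chemokines, 5 were tested and 2 were higher at an unadjusted p under 0.05 (all tested genes, 2.7%). *Tnf* stood at 1.15, 1.17 and 1.07 FPKM in WT and at 2.73, 1.83 and 1.38 FPKM in PC del without overlap (0.46 log2, SE 0.18), and *Il1a* at 1.24, 1.16 and 1.02 FPKM in WT and 2.03, 2.89 and 1.497 FPKM in PC del (0.53 log2, SE 0.18). In both, QC10 was the PC del library nearest to WT. *Il33*, an epithelial and stromal alarmin, made 84.8% of the list's sum and did not separate the genotypes, and *Il1b*, the next in abundance, ranged from 2.46 to 6.01 FPKM in WT and from 4.37 to 9.84 FPKM in PC del. *Il6* was under the filter and highest in QC8, at 2.74 FPKM. *Il17a*, *Il17f* and *Il22*, cytokines of mucosal defence that induce neutrophil ligands, were at no more than 0.073, 0.0531 and 0 FPKM.

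Of the 16 genes of chemokine induction and NF-κB signalling, all were tested and 4 were higher at an unadjusted p under 0.05 (all tested genes, 2.7%), with a median log2 fold change of 0.18 (0.04). *Nfkbiz*, a nuclear cofactor of NF-κB, stood at 8.72, 4.68 and 6.89 FPKM in WT and at 12.5, 11.04 and 10.2 FPKM in PC del (0.69 log2, SE 0.20). *Nfkbia*, the inhibitor that NF-κB induces, gave 30.9, 30.9 and 34.8 FPKM in WT and 47.2, 38.3 and 38.6 FPKM in PC del (0.35 log2, SE 0.12), and for both genes every PC del library was above every WT library. *Il1r1* had an unadjusted p under 0.05 with overlapping groups (0.41 log2, SE 0.16). *Tnfaip3*, another NF-κB target, had a log2 fold change of -0.45 (SE 0.33), the lowest of the list. The most abundant genes of the list, *Tnfrsf1a* and *Ltbr*, averaged 77.5 and 69.3 FPKM and did not separate the genotypes.

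Of 9 atypical receptors and related chemoattractants, 7 were tested, all above 0 on the log2 scale (all tested genes, 63.1%), and 2 had an unadjusted p under 0.05 (2.7%). These were *Pf4*, a platelet chemokine also found in macrophages (0.36 log2, SE 0.14), and *Ackr4*, a scavenger of *Ccl25*, *Ccl21a* and *Ccl19* (0.49 log2, SE 0.18). *Ackr4* stood at 0.884, 1.07 and 1.65 FPKM in WT and at 1.61, 2.55 and 2.08 FPKM in PC del, where only QC3 overlapped WT. *Rarres2*, chemerin, was the most abundant of this list at 15.1 FPKM. Of 15 genes of chemokine receptor signalling, led by *Gnb1* (155.1 FPKM) and *Gnai2* (136.7 FPKM), 0 had an unadjusted p under 0.05 and the median was 0.08. Of 8 genes for cleavage and presentation of chemokines, led by *Cd74* (764.0 FPKM) and *Sdc1* (116.9 FPKM), 0 had one, with a median of 0.31. *Dpp4*, the protease that trims *Cxcl10* and *Cxcl12*, stood at 103.9 FPKM in QC6 and between 42.5 and 80.2 FPKM elsewhere.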

How the data were processed

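The authors prepared libraries with the TruSeq RNA kit and sequenced them on a HiSeq2500; their methods name CLC Genomics Workbench and a normalization in MatLab without settings. They deposited FPKM per gene, scaled for gene length and library size. The deposited TPM, scaled to a fixed sum per library, served as an alternative. Coverage, deposited unscaled, gave depth: 5.407, 5.608 and 5.876 gigabases aligned in QC3, QC8 and QC10, and 5.715, 5.642 and 5.68 in QC4, QC5 and QC6. The program and annotation behind the tables are not given in the sources used here; positions of 45 of the 59 members equal those of GENCODE M21 (GRCm38).

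FPKM was summed per gene identifier. Fits used limma 3.58.1 in R 4.3.3 (eBayes with a mean-variance trend) and were tested on simulated data; exact permutation tests used scipy 1.17.1. Members with a mean of at least 5 FPKM, an unadjusted p under 0.05 or groups that do not overlap, and all neutrophil ligands with their receptors, are given in every library, with 1 exception, and with some of their partners; of other lists, the genes with an unadjusted p under 0.05 and the 2 most abundant could be named, and a few further genes (such as *S100a8*, *Il6*, *Tnfaip3* and *Dpp4*) were named after their values were seen. Members and lists were chosen with earlier results of these data known. Shared sequence was measured over 31-base words of GENCODE transcripts. Alternatives were TPM, a mean of at least 5 FPKM, leaving out the filter, a pseudocount of 0.1, median centring, quantile normalization, no trend, array quality weights, a Y-linked gene score as a covariate, and each library left out.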

Additional observations from a re-analysis of the deposited data

How the results depend on the processing

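Over 15 alternatives, no member passed the adjusted threshold of limma. The lowest limma adjusted p of a member chosen for naming was 0.235, for *Cxcl2* without QC10. Of 22 members chosen for naming by rule, 15 kept the direction of their log2 fold change under all alternatives that could be fitted. *Cxcl9* had an unadjusted p under 0.05 in 14 of 14 alternatives and *Cxcl1* in 13 of 14, *Cxcl17* in 11, *Ccl28* in 9, *Ccl17* and *Ccr1* in 8 and *Ccl8* in 5. The counts were 6 for *Cxcl3* and 4 for *Cxcl2*. These 2 genes entered the test only through PC del, so that their counts depend on the genotype where they were higher. The members higher at an unadjusted p under 0.05 numbered 9, and 0 with a minimum mean FPKM of 5 (all tested genes, 1.9%), which left 11 members, and 4 with median centring (1.95%). Array quality weights gave 13 higher and 1 lower (all tested genes, 5.66% and 3.26%). Members whose groups do not overlap numbered 8 (all tested genes, 6.0%), and 1 with a minimum mean of 5 (4.72%) and 5 with median centring (3.93%). Leaving out single libraries gave 3 to 12 higher and 0 to 1 lower at the unadjusted threshold (all tested genes, 1.76% to 3.47% higher), and 8 to 18 without overlap above WT (9.34% to 15.7%) and 0 to 1 below. The 12 were found without QC10 (3.47%). Directions turned for *Ccl25*, *Cxcl12*, *Cx3cl1*, *Cxcl16*, *Ccl5*, *Ccl6* and *Cxcr4*. Their log2 fold changes in the main fit ranged from -0.003 (*Ccl25*) to 0.23 (*Ccl5*). *Ccl25* was at 0.056 with TPM, 0.036 with quantile normalization, 0.21 with array weights and 0.023 with the Y-linked score, and between -0.18 and 0.28 with a library left out. *Cxcl12* was at -0.005 with median centring and -0.021 with quantile normalization (-0.16 to 0.41 with a library left out), and *Cx3cl1* at -0.006 with median centring and -0.022 with array weights (-0.008 to 0.14). *Cxcl16* was at -0.041 with array weights (-0.07 to 0.16). With a library left out, *Ccl5* ranged from -0.31 to 0.73, *Ccl6* from -0.16 to 0.39 and *Cxcr4* from -0.047 to 0.45. Apart from the smaller number of genes or libraries in some alternatives, the cause was not tested. The minimum mean of 5 left none of the neutrophil ligands. The median of the lymphocyte ligands lay between 0.076 and 0.36 over the alternatives and that of the homeostatic ligands between 0.085 and 0.30. No paired analysis was possible because library numbers are unique and tie no mouse of 1 genotype to a mouse of the other. A missed threshold does not show that levels were equal, and the fragments behind a weakly expressed member were few (7.28 to 31.2 for *Ccl3*).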
